A study of Drosophila melanogaster with 56 samples.

Results

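Line 1 and line 11 are independent reinsertion lines of the same genotype, Obp50a (Obp50a+b-c-d-), and this account sets line 1 against line 11 with sex as a block. The comparison holds 8 of the 56 libraries of the series, 4 of line 1 and 4 of line 11, with 2 female and 2 male libraries in each line. They were taken by their genotype, line and sex labels, and no measured value entered the choice. Each library came from a pool of 30 whole mated adult flies of 1 sex, whose age the labels do not give. In the Canton S (B) background the Obp50a-d cluster had been removed with CRISPR/Cas9 and put back through PhiC31 integration, with Obp50a intact and premature stop codons in Obp50b, Obp50c and Obp50d. All 8 libraries share this allele, the Cre step that removed the vector, and a substitution in each of the flanking genes CG34444 and CG34185. Both lines carry the same construct at the same site, so a difference between them is a difference between lines of 1 genotype. The labels name separate pools but not separate cultures, and p-values therefore measure the spread between these pools, which may be technical.

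Odorant binding proteins are small secreted proteins best known for carrying hydrophobic ligands in the fluid of insect sensory hairs. Many are also made outside the head, in fat body, gut and reproductive organs. A whole fly library sums RNA over all tissues, so fewer cells of a type and less RNA per cell cannot be told apart. In adult females the ovary contributes a large share of that RNA, and in males the testis and accessory gland do.

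Total counts ran from 17856702 to 42553944 in these 8 libraries. The headers of the deposited files divide the series into 39 libraries of a first set, 14 of a second and 3 redone. Both line 1 male libraries (49_S29 and 50_S30) are of the first set and the other 6 libraries of the second. In males, line and set cannot be told apart, and the females are the comparison within 1 set. Male markers matched the sex labels, with 12 testis markers summing to 2216 and 2347 CPM in line 1 males and 2198 and 2333 CPM in line 11 males, and at most 64.7 CPM in the females. The sum of 16 ovary markers (yolk, chorion, vitelline membrane and maternal transcripts) was 35300 and 38210 CPM in line 1 females and 49120 and 55500 CPM in line 11 females. It was 3600 CPM in line 1 male library 49_S29 and 181.5 CPM in 50_S30, against 26.25 and 20.75 CPM in line 11 males. CPM are counts scaled to library size and by TMM over the 8 libraries, and log2 fold changes are line 1 over line 11.

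The targeted paralog was barely detected. Obp50a (FBgn0050067, 2R:14370331-14371116, minus strand, FlyBase release 6) had 0 counts in all 4 female libraries, which allows up to 0.116 and 0.12 CPM in line 1 females and 0.171 and 0.166 CPM in line 11 females. It had 27 and 15 counts in line 1 males (0.617 and 0.446 CPM), against 12 and 0 counts in line 11 males (0.428 and 0 CPM). Both line 1 males lay above both line 11 males, but the difference was far from the threshold (log2 fold change 1.27 ± 1.53 SE, FDR = 1). Obp50c, whose protein is cut short by a stop codon in both lines but whose transcript is still made, had 10.4 and 12.5 CPM in line 1 males and 10.5 and 13.2 CPM in line 11 males. The lines overlapped, and Obp50c stayed at or under 0.341 CPM in every female library. Obp50d did not exceed 0.891 CPM in any library, and Obp50b, listed at 0 in the series table, was not tested. The paper describes a bicistronic transcript of Obp50b and Obp50c. Counts under Obp50c therefore cannot be told from Obp50b, and the 0 does not show that Obp50b was absent.

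The flanking gene CG34444 had 0.579 and 1 CPM in line 1 females and 3.07 and 3.27 CPM in line 11 females, without overlap, at a log2 fold change of -2 ± 1.24 (SE, FDR = 0.274). CG34185 did not exceed 1.05 CPM in any library. The eye colour gene w, the marker that Cre removes with the vector, had 0.926 and 1.4 CPM in line 1 females and 0.739 and 2 CPM in line 11 females, which overlap. None of these genes passed the test in either sex.

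Over both sexes, the quasi-likelihood test of edgeR, with p-values adjusted by Benjamini-Hochberg, called 0 of 15675 genes at an FDR under 0.05 (0% called), although 2509 genes (16%) had an unadjusted p under 0.05. On the same design DESeq2 called 414 genes and limma-voom 3. The gene of lowest p was Osi10b (log2 fold change -2.38 ± 0.26 SE, FDR = 0.101). The sexes were then compared separately in a fit with a mean for each combination of line and sex. Female line 1 differed from female line 11 at 4399 genes (28.1% called), of which 2645 were higher (16.9%) and 1754 lower (11.2%). Male line 1 differed from male line 11 at 89 genes (0.568% called), of which 16 were higher (0.102%) and 73 lower (0.466%). Unadjusted p was under 0.05 for 6059 genes in females (38.7%) and 1252 in males (7.99%). The line difference itself differed between the sexes at 2774 genes (17.7% called), 1855 with the higher value in females (11.8%) and 919 with the lower (5.86%), and 4931 genes (31.5%) had an unadjusted interaction p under 0.05. The CPM of the lines did not overlap at 9591 genes in females (61.2%) and 6673 in males (42.6%), at 2216 genes in the same direction in both sexes (14.1%) and at 1795 in opposite directions (11.5%), so that non-overlap of 2 pools with 2 is common. With a mean for each combination, the average of both line differences was past the threshold at 3078 genes. In a fit over all 56 libraries, which moved the median female log2 fold change of all genes to 0.28 from 0.06, 80.7% of the female calls were higher in line 1 against 60.1% here. There, 90.7% of the 43 male calls were higher against 18% here. The median of each gene list printed below kept its sign under that scaling unless stated, and medians by exon length were not computed under it. Female counts of list members below stand against 16.9% higher and 11.2% lower over all genes, and male counts against 0.102% and 0.466%.

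**Figure D1:**
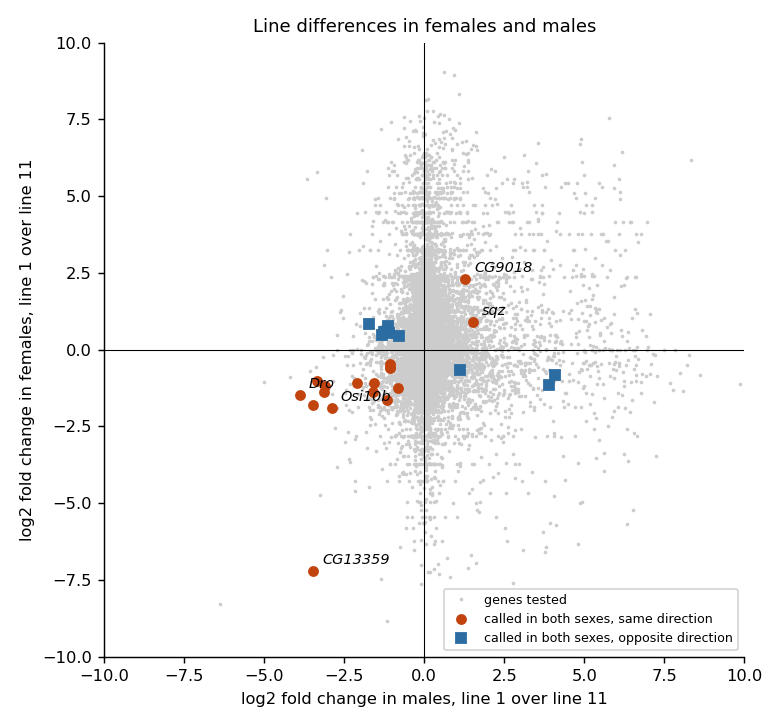
Each point is a gene tested, with the log2 fold change of line 1 over line 11 in females on the vertical axis and in males on the horizontal axis. The coloured points are the 26 genes called in both sexes, 17 in the same direction (circles) and 9 in opposite directions (squares), and CG13359 lies lowest of them at -7.21 in females.

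Of the genes called, 26 were called in both sexes (0.166% of all tested), 17 in the same direction (0.108%) and 9 in opposite directions (0.0574%). As a share of the 89 male calls, the 26 are near the 28.1% of all genes called in females. The size of this overlap therefore does not show agreement between the sexes. These genes were singled out after their values were seen. In the same direction only CG9018 and sqz were higher in line 1, and the other 15 were lower. CG13359 had the largest female fold of the 17, and CG9018 the larger female fold of the pair that was higher. In the fit over all 56 libraries, of the 17 only CG13359 and CG9018 were still called in both sexes. With the trend on exon length described below removed, 11 of the 17 were. Dro, mt:ND2, CG7299, CG32368, CG5515 and sqz then lost the female call.

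CG13359 (FBgn0025616, X:801669-803470, minus strand) had 3.05 and 1.48 CPM in line 1 females, against 349 and 324 CPM in line 11 females. It had 10.9 and 11.6 CPM in line 1 males, against 111 and 138 CPM in line 11 males. Every line 1 library was far below every line 11 library. The log2 fold change was -7.21 ± 0.31 in females (SE, FDR = 1.38e-05) and -3.47 ± 0.25 in males (FDR = 0.00242). The female minus male difference was -3.74 on the log2 scale (interaction FDR = 0.000381). The male call held with each library left out in turn, at an FDR of at most 0.0494.

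CG9018 (FBgn0035318, 3L:2235284-2237076, minus strand) ran the other way. It had 123 and 117 CPM in line 1 females, against 25.5 and 23.1 CPM in line 11 females, and 41 and 37.2 CPM in line 1 males, against 15.8 and 16.5 CPM in line 11 males. The groups did not overlap in either sex. The log2 fold change was 2.30 ± 0.14 in females (SE, FDR = 1.75e-05) and 1.28 ± 0.13 in males (FDR = 0.00827), and the female difference was the larger (interaction FDR = 0.00634). The male call was lost without line 11 male 81_S33 (FDR = 0.0934) or 82_S34 (FDR = 0.119).

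Across the other lines both genes were split in the same way. On CPM scaled over all 56 libraries, CG13359 lay between 100 and 248 CPM in males of Obp50b line 19, Obp50c line 24 and Obp50Pos line 8, near the 110 and 129 CPM of line 11. Males of the remaining lines had 8.86 to 14.6 CPM, around the 11 and 11.7 CPM of line 1. In females the same 3 lines had 18.6 to 730 CPM and the remaining lines 1.25 to 16.4 CPM. CG9018 was low in those same lines, at 12.7 to 18.9 CPM in males and 20.9 to 28.7 CPM in females, and the remaining lines had 25.9 to 109 CPM in males and 51.1 to 261 CPM in females. Obp50b and Obp50c each have 1 line on either side. Lines 19 and 24 are of the first library set, line 11 is of the second, and line 8 is of the second and redone sets. These levels are a description with no test.

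**Figure D2:**
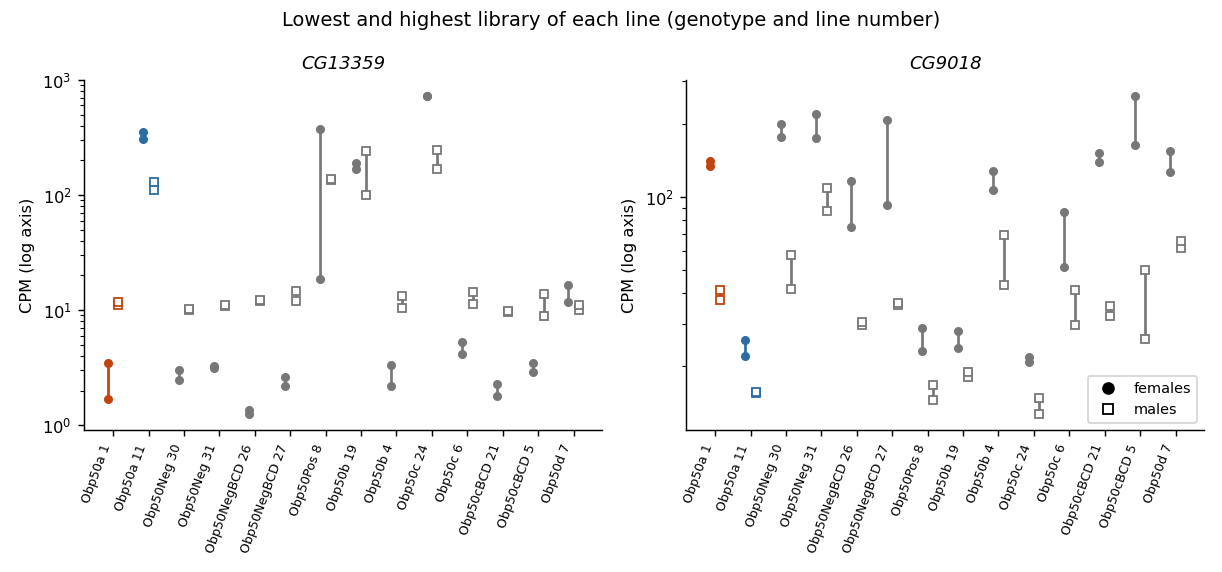
Lowest and highest CPM of each line, joined by a bar, for CG13359 and CG9018, in females (filled circles) and males (open squares), on log axes, with line 1 and line 11 of Obp50a marked. Lines 11, 19, 24 and 8 hold the high CG13359 values and the low CG9018 values.

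Osi10b (FBgn0037417, 3R:6263976-6267395), of the Osiris family of insect membrane proteins, had 18.6 and 16.8 CPM in line 1 females, against 74 and 59.1 CPM in line 11 females. In males it had 1.85 and 1.87 CPM in line 1, against 10.8 and 17 CPM in line 11. The lines were separated in both sexes, at a log2 fold change of -1.91 ± 0.23 in females (SE, FDR = 0.000454) and -2.89 ± 0.26 in males (FDR = 0.00764). With each library left out the male log2 fold change stayed between -3.18 and -2.53, but in the fit over all 56 libraries Osi10b passed in neither sex. In males of other lines its median was 3.69 CPM in the first library set and 22.6 CPM in the second. Line 1 males are of the first set and line 11 males of the second, which leaving out a library does not address. Of 23 Osiris genes tested, 2 were higher and 1 lower in line 1 females, and in males Osi10b alone passed. Both female shares were below those of all genes (16.9% higher and 11.2% lower). sqz, a zinc finger transcription factor of neuronal identity, had 31.1 and 33.4 CPM in line 1 females and 14.7 and 19.7 CPM in line 11 females, and 16.4 and 19.6 CPM in line 1 males and 6.68 and 5.81 CPM in line 11 males. It was higher in line 1 by 0.90 ± 0.21 (SE) in females (FDR = 0.0123) and 1.52 ± 0.22 in males (FDR = 0.0239) on the log2 scale. The female call was lost with the exon length trend described below removed (0.57, FDR = 0.108). The male call was lost without line 1 female 61_S41 (FDR = 0.0809) or 62_S42 (FDR = 0.0719) and without line 11 male 81_S33 (FDR = 0.169) or 82_S34 (FDR = 0.262).

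**Figure D3:**
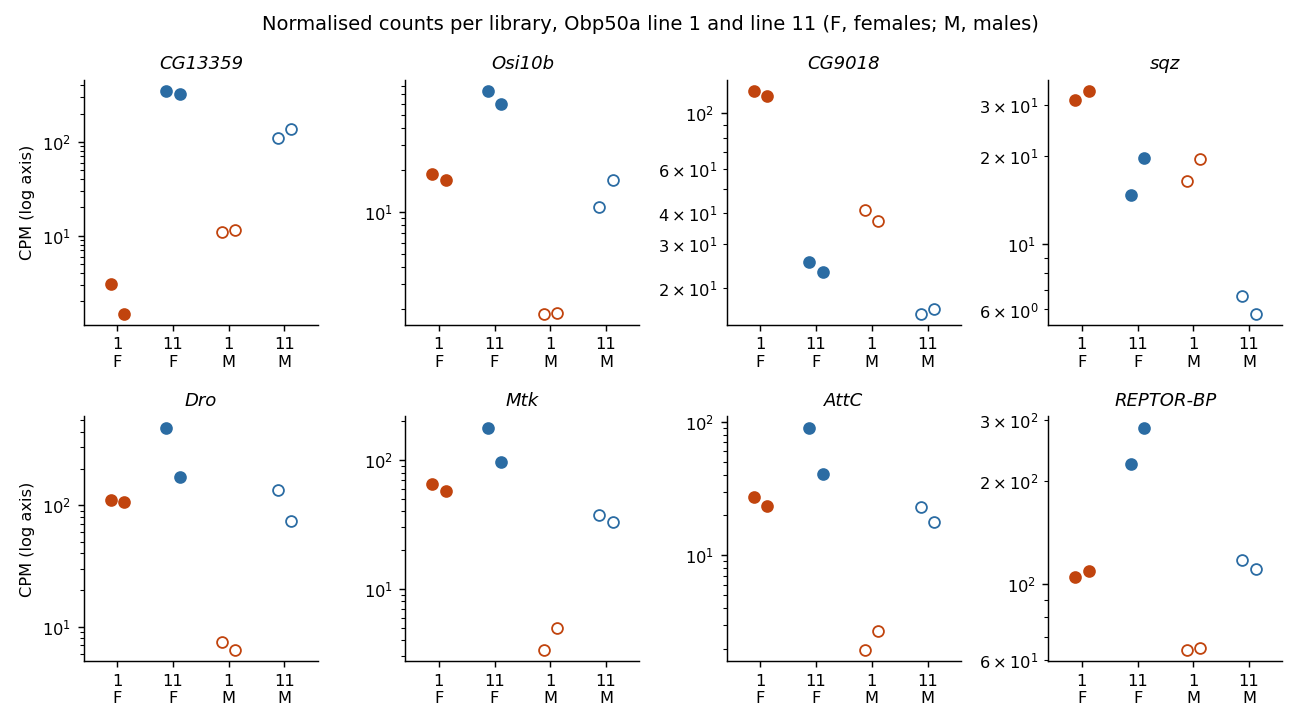
CPM of 8 genes in each of the 8 libraries, on log axes, with line 1 females, line 11 females, line 1 males and line 11 males from left to right. Each point is 1 library, filled for females and open for males. CG13359, Osi10b, Dro, Mtk, AttC and REPTOR-BP are lower in line 1 in both sexes, and CG9018 and sqz higher.

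Several antimicrobial peptides were lower in line 1 in both sexes. These short secreted peptides are made mainly by the fat body under the Toll and Imd pathways. Of 21 tested, 1 was higher and 9 lower in line 1 females, at a median of -0.56 on the log2 scale against 0.06 over all genes. In males 4 were lower and 0 higher, with a median of -1.38 against 0.03. Dro (drosocin) had 111 and 106 CPM in line 1 females, against 435 and 171 CPM in line 11 females. Male Dro was at 7.5 and 6.39 CPM in line 1, against 132 and 74.2 CPM in line 11. The lines were apart in both sexes, although line 11 pools of 1 sex differed from each other, and the log2 fold change was -1.48 ± 0.40 in females (SE, FDR = 0.0231) and -3.89 ± 0.45 in males (FDR = 0.00972). With the exon length trend removed, female Dro was at -1.34 and not called (FDR = 0.0521).

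Mtk (metchnikowin) had 65.4 and 57.7 CPM in line 1 females, against 179 and 97 CPM in line 11 females, and 3.34 and 4.93 CPM in line 1 males, against 37.5 and 33.3 CPM in line 11 males. AttC (attacin C) had 27.3 and 23.2 CPM in line 1 females, against 90.4 and 40.9 CPM in line 11 females, and 1.94 and 2.7 CPM in line 1 males, against 22.8 and 17.6 CPM in line 11 males. For both peptides the 4 line 1 libraries were below those of line 11 of the same sex. The log2 fold change of Mtk was -1.17 in females (FDR = 0.0135) and -3.1 in males (FDR = 0.00821), and that of AttC was -1.38 in females (FDR = 0.0161) and -3.13 in males (FDR = 0.0109). For Dro, Mtk and AttC the male difference was the larger (interaction FDR = 0.02, 0.0118 and 0.0421). DptA (diptericin A) was called in males, at 1.55 and 2.14 CPM in line 1 against 22.7 and 15.3 CPM in line 11 (log2 fold change -3.37 ± 0.52 SE, FDR = 0.0332), and not in females, where 47.4 and 24.4 CPM in line 1 overlapped 76.3 and 29.5 CPM in line 11.

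The male calls of Dro, Mtk and AttC were lost without either line 11 male (FDR from 0.0775 to 0.119). Other males covered both levels of these peptides. Over the 24 males of the other lines Dro ran from 2.41 to 346 CPM with a median of 10.6, and Mtk from 1.65 to 72.5 CPM with a median of 5.92, so that line 11 was on the high side and line 1 near or under the median.

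Related immune genes had the same direction in females. Of 12 Bomanins, short peptides induced by Toll and listed here after values were seen, 8 were lower in line 1 females and 1 in line 1 males. That gene, BomS5, had 9.91 and 12 CPM in line 1 females, against 26.3 and 30 CPM in line 11 females, and 3.22 and 3.24 CPM in line 1 males, against 11.8 and 8 CPM in line 11 males. The lines did not overlap in either sex, at a log2 fold change of -1.36 ± 0.25 in females (SE, FDR = 0.00347) and -1.62 ± 0.25 in males (FDR = 0.0359). Of 13 peptidoglycan recognition proteins 4 were lower in females, and of 5 genes of the Drosomycin family 2 were lower, Drsl4 at -1.64 (FDR = 0.000194) and Drsl5 at -0.83 (FDR = 0.00294) on the log2 scale. No gene of either list was called in males, and over all genes 11.2% were lower in females. In the fit over all 56 libraries 1 antimicrobial peptide was lower and 1 higher in females. The female calls there were 0 Bomanins, 0 peptidoglycan recognition proteins and 1 lower gene of the Drosomycin family. The median of each list was still below 0. In males that fit called 0 of the antimicrobial peptides and 0 of the Bomanins, against 4 and 1 here, with medians of -1.31 and -0.87. Of 6 Turandot genes, stress-induced secreted proteins, 3 were higher in line 1 females, among them TotA with 39.4 and 177 CPM, against 27.2 and 22 CPM in line 11 females (log2 fold change 2.14 ± 0.56 SE, FDR = 0.0208). The 6 genes summed to 118.5 CPM in line 1 female 61_S41 and 583.5 CPM in 62_S42, against 111.7 and 92.8 CPM in line 11 females. The sum of 61_S41 was thus near those of line 11.

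Other genes lower in both sexes had varied roles. REPTOR-BP, a transcription factor partner acting downstream of TORC1, had 105 and 109 CPM in line 1 females, against 224 and 286 CPM in line 11 females, and 64.2 and 65 CPM in line 1 males, against 118 and 111 CPM in line 11 males. The lines did not overlap, at -1.26 ± 0.14 in females (SE, FDR = 0.000251) and -0.83 ± 0.14 in males (FDR = 0.0437). Dscam3, an immunoglobulin-type cell adhesion molecule, was at -1.09 in females (FDR = 0.00698) and -1.58 in males (FDR = 0.0267). The mitochondrial gene mt:ND2, a subunit of complex I, was at -1 in females (FDR = 0.0454) and -3.35 in males (FDR = 0.00972) on the log2 scale, with 0.663 and 1.1 CPM in line 1 males against 8.18 and 9.64 CPM in line 11 males. The remaining ones were CG7299, CG32368, CG5515, lncRNA:CR45388, lncRNA:CR45557 and 28SrRNA-Psi:CR41609, at log2 fold changes from -0.46 to -1.79 in females and from -1.07 to -3.48 in males. With the exon length trend removed, mt:ND2 (FDR = 0.138), CG7299 (FDR = 0.0771), CG32368 (FDR = 0.0564) and CG5515 (FDR = 0.193) were not called in females. 28SrRNA-Psi:CR41609 is a ribosomal RNA pseudogene with close copies, so its unique counts are uncertain.

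The 9 genes with line differences of opposite sign included zld and piwi. zld encodes the pioneer factor Zelda, which opens the zygotic genome, and had 1780 and 1710 CPM in line 1 females, against 1300 and 1080 CPM in line 11 females. In males it had 455 and 380 CPM in line 1, against 872 and 915 CPM in line 11. piwi, the nuclear Argonaute of the piRNA pathway, had 1300 and 1020 CPM in line 1 females, against 812 and 740 CPM in line 11 females, and 89.7 and 94.4 CPM in line 1 males, against 191 and 251 CPM in line 11 males. The log2 fold change was 0.55 ± 0.13 (female FDR = 0.0118) and -1.10 ± 0.13 (male FDR = 0.00972) for zld, and 0.58 ± 0.16 (female FDR = 0.0265) and -1.27 ± 0.16 (male FDR = 0.0148) for piwi (SE). With the trend on exon length described below removed, female zld turned to -0.85 (FDR = 0.00254) and female piwi was no longer called (FDR = 0.233). lncRNA:CR44274, lncRNA:CR44483, CG5521 and CG14692 were likewise higher in line 1 females and lower in line 1 males. Of these, CG5521 turned to -0.71 and CG14692 to -0.45 in females without that trend.

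Lower in line 1 females and higher in line 1 males were CG6937, nur and moon. moon encodes Moonshiner, a germline factor that starts transcription of piRNA clusters. It had 8.64 and 9.92 CPM in line 1 females, against 21.9 and 19.2 CPM in line 11 females, and in males 35 and 16 counts in line 1 against 1 and 1 in line 11. nur had 31 and 25 counts in line 1 males against 2 and 0 in line 11 males. With the length trend removed, CG6937 was not called in females (FDR = 0.0591). nur was then called in neither sex (female FDR = 0.115, male FDR = 0.0578). The ovary markers moved in the same directions, and their part in these calls was not tested. Of 22 piRNA pathway genes, 5 were higher and 3 lower in females, near the shares of all genes (16.9% higher and 11.2% lower), and 2 and 2 with the length trend removed. In males 1 was higher and 1 lower. Their female median was -0.02 and turned to 0.20 in the fit over all 56 libraries.

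The genes higher in line 1 males included eggshell and yolk genes. Cp38, a chorion protein, had 488 CPM in line 1 male 49_S29 and 21.7 CPM in 50_S30, against 1.29 and 0.673 CPM in line 11 males. Yp1, a yolk protein, had 365 and 20.2 CPM in the same line 1 males, against 1.46 and 1.6 CPM in line 11 males. Line 1 was above line 11 in both, but its pools were far from each other. The log2 fold changes were 8.00 ± 1.36 (SE, FDR = 0.0482) for Cp38 and 6.97 ± 1.20 (FDR = 0.0488) for Yp1. Without library 49_S29 they were 4.44 and 3.72, and without 50_S30 they were 8.93 and 7.90. Cp19 and Cp7Fb, also chorion proteins, and CG12708 were called as well, with at most 5 counts in any line 11 male. In females none of these genes was called.

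On CPM scaled over all 56 libraries, the ovary sum of 49_S29 was the highest of the 28 males of the series (3630 CPM), that of 50_S30 had rank 8 (183 CPM), and the line 11 males were among the lowest. Of 9 chorion genes 3 were called in males, of 3 yolk genes 1, and of 8 vitelline membrane genes 0, with medians of 6.20, 6.68 and 6.50 against 0.03 over all genes. These are yolk and eggshell transcripts in male pools, and their source was not tested.

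**Figure D4:**
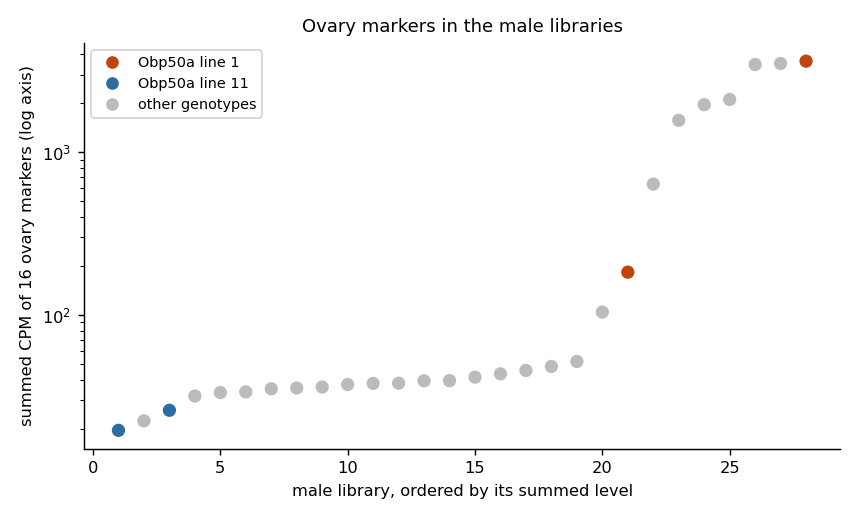
Summed CPM of 16 ovary markers in each of the 28 male libraries of the series, on a log axis, ordered by level, with the line 1 and line 11 libraries of Obp50a marked. Line 1 library 49_S29 is the highest, at 3630 CPM, and both line 11 libraries lie near the low end.

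The number of male calls followed single libraries. Without 49_S29, 118 genes were called, 51 of them shared with the 89 and 59.3% higher in line 1. Without 50_S30, 244 were called, 74.2% higher. Without line 11 male 81_S33 or 82_S34 only 4 or 3 genes were called, and of the 17 genes called alike in both sexes only CG13359 and Osi10b remained. Leaving out 1 library leaves a group of 1 pool, which is then assumed to vary like the others. Of the 73 genes lower in line 1 males, line 1 lay within the range of the 19 first-set males of other lines for 70 and line 11 for 70 as well. Line 1 was below all 3 second-set males of other lines for 49 of the 73, and line 11 lay within their range for 12. Those 3 males were 69_S37 and 70_S38 of Obp50Pos line 8 and 57_S47 of Obp50cBCD line 5. Line 8 was on the side of line 11 for CG13359 and CG9018. Over the 73 genes, the median log2 ratio of first-set to second-set males of other lines was -0.12, against 0.07 over all genes.

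The female difference varied with transcript length and was highest in the longest genes. Among 494 genes with over 8000 bp of exons, 436 were higher and 6 lower in line 1 females, at a median of 1.37 on the log2 scale, and 89.5% were called. Among 1719 genes of 4000 to 8000 bp, 1130 were higher and 32 lower, with a median of 0.85. Genes of 2000 to 4000 bp had a median of 0.17. Genes of 1000 to 2000 bp had a median of -0.25, with 211 higher and 789 lower, and genes of 500 to 1000 bp had a median of -0.20. The 1375 genes of up to 500 bp had a median of 0, with 48 higher and 157 lower. In males every one of these length classes had a median between 0.01 and 0.07.

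The contrast of genes over 4000 bp with genes up to 1000 bp, relative to the other libraries of the sex, was 0.62 and 0.73 in line 1 females (ranks 4 and 1 of 28) and -0.46 and -0.43 in line 11 females (ranks 23 and 22). It was -0.08 and -0.25 in line 1 males and -0.13 and -0.10 in line 11 males. When a smooth trend on exon length was taken out, an alternative added after the data were seen, 2769 female calls were made, 2375 of them shared with the 4399. Whether the length trend arose in the flies or in the libraries was not tested.

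**Figure D5:**
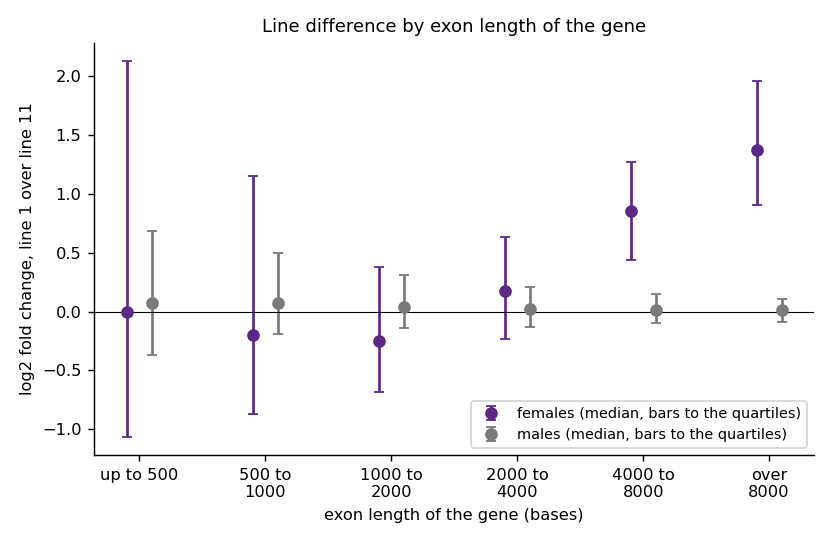
Log2 fold change of line 1 over line 11 by total exon length class, in females and in males, shown as the median and the quartiles over genes. Female medians run from -0.25 at 1000 to 2000 bp to 1.37 above 8000 bp, and male medians stay between 0.01 and 0.07.

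The genes of lowest interaction p were mostly long. sls encodes the titin-like muscle protein Sallimus and had 2110 and 2600 CPM in line 1 females, against 300 and 323 CPM in line 11 females. In males it had 4550 and 4350 CPM in line 1, against 4690 and 4820 CPM in line 11. The female lines were wide apart, and sls was not called in males (log2 fold change 2.92 ± 0.12 in females, SE, FDR = 1.38e-05, and -0.10 ± 0.11 in males, FDR = 1). kis, a chromatin remodeller, was higher in line 1 females by 2.95, spen, a regulator of RNA and signalling, by 2.67, IA-2, a protein of secretory vesicles, by 2.37, and lncRNA:CR42862 by 2.62 on the log2 scale, all at a female FDR of at most 1.46e-05 and none called in males. Without the length trend the female values were 0.30 for sls, 1.10 for kis, 0.69 for spen, 0.99 for IA-2 and 1.77 for lncRNA:CR42862, and each was still called. The one short gene among the 6, CR41544, on an unplaced scaffold, was lower in line 1 females, at 958 and 793 CPM against 8810 and 7070 CPM in line 11 females.

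Several long neuronal, muscle and signalling genes lost size or their call with the length trend removed. All 4 neuronal markers were higher in line 1 females, among them brp, an active zone scaffold (98.8 and 97 CPM in line 1, against 16.9 and 21.7 CPM in line 11), and Syt1, the calcium sensor of vesicle release (172 and 195 CPM in line 1, against 52.3 and 71 CPM in line 11). With the length trend removed 2 of the 4 were called, brp at 0.77 (FDR = 0.00511), while Syt1 was not (0.27, FDR = 0.19). bt, the muscle protein projectin on chromosome 4, was higher by 2.52, and InR, the insulin receptor, by 1.33 on the log2 scale. Without the trend these were 0.42 and -0.12. The flight muscle list as a whole did not move 1 way, with 4 of 13 higher and 4 lower in females (median -0.07, and 0.15 in the fit over all 56 libraries), and of 14 insulin signalling genes 5 were higher and 1 lower, and 0 and 1 without the trend. fru, the regulator of male courtship, was higher by 1.46 (FDR = 0.000349) and came to -0.35 without the trend, and msl-1, a dosage compensation subunit, was higher by 1.54 and stayed called at 0.77 (FDR = 0.0245). Of 11 clock genes 6 were higher and 1 lower in females, against 16.9% and 11.2% of all genes, and 1 and 1 after removal. tim, a core repressor of the clock, was higher by 1.09 in females (FDR = 0.000356), while its male value of 0.68 did not pass (FDR = 0.0634), and cry, the lower one, was at -0.75 in females (FDR = 0.0251). Without the trend neither was called in females, with tim at 0.14 (FDR = 0.449) and cry at -0.68 (FDR = 0.0501).

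Ribosomal protein and proteasome genes were among those lower in line 1 females. Of 91 cytosolic ribosomal protein genes 74 were lower and 0 higher, at a median of -0.79 on the log2 scale, and 64 were lower with the length trend removed. Their summed level was 78400 and 70780 CPM in line 1 females, against 133600 and 144900 CPM in line 11 females, and 30630 and 26680 CPM in line 1 males, against 31450 and 29580 CPM in line 11 males. RpL10Ab, of the large subunit, had 278 and 236 CPM in line 1 females, against 568 and 497 CPM in line 11 females, and RpL7A had 852 and 761 CPM in line 1 females, against 1390 and 1520 CPM in line 11 females. The lines were apart for both (FDR = 0.000414 and 0.000496), and 0 of the 91 genes were called in males. Of 47 proteasome subunits 22 were lower and 2 higher in females, with Prosalpha5 at 93.8 and 86.1 CPM in line 1 against 192 and 191 CPM in line 11.

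Many transcripts of the mitochondrial genome and many structural RNAs were lower in line 1 females as well. Of 20 mitochondrial genes tested, 12 were lower and 0 higher, with a median of -1.38, and 10 were lower with the length trend removed. Their sum was 20420 and 20640 CPM in line 1 females, against 54560 and 64560 CPM in line 11 females, and 15310 and 21650 CPM in line 1 males, against 21680 and 26480 CPM in line 11 males. mt:ND5 had 1700 and 2220 CPM in line 1 females, against 5530 and 7330 CPM in line 11 females (log2 fold change -1.71 ± 0.17 SE, FDR = 0.000146). In males mt:ND5 was -0.89 ± 0.17 (FDR = 0.0651).

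Ribosomal RNA genes and pseudogenes, a list added after values were seen, summed to 3166 and 3445 CPM in line 1 females, against 11130 and 11530 CPM in line 11 females, and 10 of 20 were lower. These libraries were depleted of ribosomal RNA, so this sum is what depletion left. 18SrRNA-Psi:CR41602 had 265 and 255 CPM in line 1 females, against 915 and 936 CPM in line 11 females, and 212 and 192 CPM in line 1 males, against 190 and 177 CPM in line 11 males. Of 179 small nucleolar RNAs 33 were lower and 2 higher in females, and of 44 spliceosomal and other small RNAs 21 were lower and 0 higher. Over all genes 11.2% were lower and 16.9% higher. In the fit over all 56 libraries 38 ribosomal protein, 2 mitochondrial and 10 ribosomal RNA genes were lower in females and 0 higher. Of the small nucleolar RNAs 6 were lower and 6 higher there. The median of each of these groups was below 0.

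Digestive enzymes and glutathione S-transferases were also called lower in line 1 females more than higher. Of 45 digestive enzymes of the gut 21 were lower and 0 higher in females, with a median of -0.63, while 2 were higher and 0 lower in males. Their sum was 16630 and 19890 CPM in line 1 females, against 22490 and 29020 CPM in line 11 females, and 20810 and 18900 CPM in line 1 males, against 13800 and 15380 CPM in line 11 males. Of 35 glutathione S-transferases 14 were lower, among them GstE11 with 16.6 and 14.8 CPM in line 1, against 48.3 and 44.4 CPM in line 11. Of 83 cytochrome P450 genes 8 were lower and 2 higher, a share lower that was below the 11.2% of all genes, with Cyp12d1-p at 6.21 and 8.44 CPM in line 1, against 25.3 and 18.5 CPM in line 11. Cyp12d1-p has a near-identical neighbour and its unique counts are uncertain. In the fit over all 56 libraries 8 digestive enzymes were lower and 0 higher, and 7 glutathione S-transferases were lower and 1 higher. The P450 genes had 6 higher and 5 lower there, with a median that turned to 0.07. With the length trend removed 13 digestive enzymes were lower and 1 higher, and 4 glutathione S-transferases lower and 0 higher. Over all genes 1683 of 15675 were lower in females with that trend removed.

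Of 6 genes of cuticular hydrocarbon synthesis 3 were lower in line 1 females, against 11.2% of all genes. Desat2, a desaturase of contact pheromone synthesis, had 1.31 and 0.88 CPM in line 1 females, against 5.97 and 20 CPM in line 11 females (log2 fold change -3.56 ± 0.74 SE, FDR = 0.00688), and Desat1, its broadly expressed paralog, 877 and 884 CPM in line 1, against 1270 and 1320 CPM in line 11. Neither was called in males. Est-6, an esterase of the ejaculatory duct that is also made elsewhere, was lower in line 1 females, at -0.76 ± 0.18 (SE, FDR = 0.0122).

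Among 45 odorant binding protein genes, 6 were lower and 1 higher in line 1 females, with a median of -0.30, and 0 were called in males. The share lower was near the 11.2% of all genes, and in the fit over all 56 libraries 2 were lower and 0 higher. Obp57c had 41.3 and 32.7 CPM in line 1 females, against 80.3 and 85.1 CPM in line 11 females (log2 fold change -1.16 ± 0.17 SE, FDR = 0.00101). Obp28a had 10.6 and 8.72 CPM in line 1 females, against 13.9 and 24.6 CPM in line 11 females (FDR = 0.029). Both were below line 11 without overlap. With the length trend removed 2 were lower and 1 higher, and Obp28a was not called (FDR = 0.0555).

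The calls of the largest fitted fold in females were genes absent from 1 line. ppk25, a channel subunit used by males to sense female pheromones, had 77 and 47 counts in line 1 females and 0 in both line 11 females, at least 14.4-fold higher, with a floor of 3 counts per library. lncRNA:CR46258 was at least 13.5-fold, CG43755 at least 7.92-fold and CG34328 at least 7.66-fold higher in the same way, and all 4 were present in males of both lines. CG43755, at 325 and 309 CPM in line 1 males and 278 and 301 CPM in line 11 males, had 35 and 33 counts in line 1 females. asRNA:CR43615 had 294 and 705 counts in line 1 females and 1 and 1 in line 11 females. The counting did not use strand, so antisense genes cannot be told from their partners.

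Absent from line 1 females and present in line 11 females were CG33341 (4 and 72 counts in line 11), mt:tRNA:Gln-TTG (15 and 37), Acyp, an acylphosphatase (5 and 28), CG7715 (5 and 27) and mt:tRNA:Leu-TAA (10 and 19). Their line 1 level was lower by at least 17.9-fold, 12.3-fold, 7.80-fold, 7.56-fold and 6.89-fold in that order. CG33341, CG7715 and Acyp each rest mainly on line 11 female 84_S36. With the length trend removed CG33341 (FDR = 0.0707), CG7715 (FDR = 0.0676) and mt:tRNA:Leu-TAA (FDR = 0.0633) were not called in females, nor was narya (FDR = 0.0683), given next. Kif3C, a kinesin gene on chromosome 4, had 625 and 632 CPM in line 1 females and 1090 and 1480 CPM in line 11 females (log2 fold change -1.03 ± 0.18 SE, FDR = 0.00303), and narya, a meiotic gene, 157 and 171 CPM in line 1 and 291 and 286 CPM in line 11 (FDR = 0.0158).

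By chromosome, 31.1% of X, 26.2% of 2L, 28.3% of 2R, 27% of 3L and 27.5% of 3R genes were called in females, and 49.5% of 105 genes on chromosome 4, with 40 higher and 12 lower. Without the length trend chromosome 4 had 8 higher and 18 lower. In the whole series the line differences of other genotypes varied widely. The same fit called 22, 0, 4988, 1786 and 977 genes between the female lines of Obp50Neg (31 over 30), Obp50NegBCD (26 over 27), Obp50c (24 over 6), Obp50b (19 over 4) and Obp50cBCD (21 over 5), and 8, 2, 2283, 0 and 94 between the males. The Obp50cBCD line 5 females include 55_S45, a library that the study left out.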

How the data were processed

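The authors depleted RNA of ribosomal RNA, used GSNAP for alignment, and with featureCounts 1.6.4 assigned fragments of unique position to the exons of FlyBase release 6 genes, without strand. They deposited raw counts per gene, which were used as deposited. The series table holds 17490 genes, and its values matched those of the library tables in every shared cell. The filter of the study kept 15675 genes, those above 0 in 25% or more of its 54 libraries with a median count of 2 or more. The study left out female libraries 55_S45 (Obp50cBCD line 5) and J2_S52 (Obp50Pos line 8), which the fit over all 56 libraries includes.

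Counts of the 8 Obp50a libraries (17856702 to 42553944 in total) were tested in R 4.3.3 with edgeR 4.0.16 (quasi-likelihood, TMM), at a Benjamini-Hochberg FDR under 0.05. The first fit had line and sex, and the second a mean for each of the 4 combinations, from which the line difference in each sex and their difference were taken. Limits set by a count of 0 cover counting error only. On simulated counts at the dispersion of the second fit, the test recovered 165 of 200 genes changed 4-fold in females and 192 in males, and 16 and 30 of those changed 2-fold. Alternatives were DESeq2 1.42.0 and its size factors, limma-voom 3.58.1, other filters, all 56 libraries, each sex alone, a term for library set, each library left out, and, after the data were seen, removal of the length trend and of both line 11 female libraries.

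The members and gene lists were chosen with earlier results of these data known. Genes named are the cluster, its edited neighbours and w, the 5 of largest fold in each direction per sex, the 6 interaction genes of lowest p and members of each list by lowest p. Genes called in both sexes, CG12708 and the peptides, examples and added lists were named after their values were seen. No sequence is printed.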

Additional observations from a re-analysis of the deposited data

Results flagged for a closer look

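The line difference differed between the sexes, by the interaction test of the same fit, at 2774 genes. The values below are female minus male differences of the log2 fold change of line 1 over line 11, each past an interaction FDR of 0.05. In males line and library set cannot be told apart, so these values hold that confounding too.

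Among genes called in the same direction in both sexes they were -3.74 for CG13359, 1.03 for CG9018, 2.41 for Dro, 1.94 for Mtk, 1.75 for AttC and 2.34 for mt:ND2. For DptA, called in males alone, the value was 2.81. Among genes with opposite directions the values were 1.65 for zld, 1.84 for piwi, 2.56 for lncRNA:CR44274, 1.82 for lncRNA:CR44483, -1.79 for CG6937, 1.23 for CG5521 and 1.90 for CG14692.

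Long genes had 3.01 for sls, 2.92 for kis, 2.62 for bt, 2.62 for lncRNA:CR42862, 2.60 for spen, 2.36 for IA-2, 2.25 for brp, 1.49 for Syt1, 1.47 for InR, 1.38 for fru and 1.25 for msl-1. Genes lower in line 1 females had -3.35 for CR41544, -1.97 for 18SrRNA-Psi:CR41602, -1.27 for Cyp12d1-p, -1.18 for GstE11, -1.08 for Drsl4, -1.03 for Prosalpha5, -0.82 for mt:ND5, -0.81 for Obp57c, -0.73 for RpL10Ab and -0.51 for RpL7A. Cp38 had -8.74 and Yp1 -6.97, both with the yolk and eggshell transcripts of line 1 male 49_S29.

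For genes with at most 5 counts in every library of a group, the interaction FDR is given in place of a fitted difference. It was 0.00646 for ppk25, 0.0212 for lncRNA:CR46258, 0.000297 for CG43755, 0.00602 for CG34328, 0.00803 for asRNA:CR43615, 0.0392 for CG7715, 0.0189 for Acyp, 0.00249 for nur, 0.00149 for moon, 0.00494 for Cp19, 0.00565 for Cp7Fb and 0.0119 for CG12708.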

How the results depend on the processing

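Over both sexes, the count of 0 became 414 with DESeq2, 3 with limma-voom, 3640 over all 56 libraries, 3078 with the average of the line differences and 11 with the length trend removed. It became 4399 with a term for library set, which leaves the female difference alone. Without both line 11 female libraries it became 167, which leaves the male difference alone. The female count was 2769, the interaction count 1055 and the male count 90 with the length trend removed. The male count was 399 with DESeq2, 43 over all 56 libraries, 227 with males alone and the same 167 without both line 11 females. Leaving out 1 library gave 0 to 7 calls over both sexes (7 without line 1 male 50_S30), 2738 to 5369 in females, 3 to 244 in males and 1536 to 4088 for the interaction. The female count was 2741 or 2738 without line 1 female 61_S41 or 62_S42, and the male count 47 or 43. The interaction count was 1648 or 1721 without these, and 1827 or 1536 without line 11 male 81_S33 or 82_S34. The causes were not tested. With the length trend removed, the female log2 values turned to -0.85 for zld, -0.71 for CG5521, -0.45 for CG14692, -0.12 for InR and -0.35 for fru, and the interaction of fru to -0.42. Of 152 called or tested values of single genes, 42 kept direction and side of the threshold in every alternative.

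No paired analysis was possible because the libraries of the lines share no replicate number. With 2 pools per line and sex, the simulated counts gave calls for few of the genes changed 2-fold in either sex, and genes under a few counts carry little information.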
